A study of Mus musculus with 24 samples.

Results

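The acute phase plasma proteins considered here are 10 liver genes, taken by gene symbol: the serum amyloid A genes Saa1, Saa2, Saa3 and Saa4, C-reactive protein (Crp), haptoglobin (Hp), hemopexin (Hpx) and the fibrinogen chains Fga, Fgb and Fgg. They are 10 of the 25746 genes in the count files, and all 10 passed the filter on low expression, as did 12330 genes in all. The filter asked for 0.66 CPM (counts scaled to a library of 1000000) in 6 or more libraries. Hepatic RNAseq was performed in 24 mice of C57BL/6N background (spelled C57/BL6N in the labels) at 12 weeks of age. There were 6 mice in each of 4 groups: male wildtype (mWT), male knockout (mKO), female wildtype (fWT) and female knockout (fKO). KO mice were homozygous for a CRISPR/Cas9 deletion of the whole cluster of major urinary protein (Mup) genes, in a single mouse line, and neither the labels nor the methods name a drug or diet given to 1 group and not to another. Per the study's methods, mice of all groups had been fasted for some hours, anaesthetised with isoflurane and scanned by micro-CT shortly before they were killed and the liver was taken. The summed expression of the 22 Mup genes fits the labels: the highest sum in any male KO mouse was 0.457 CPM, and in any female KO mouse 0.415 CPM, whereas mWT mice had 17028 to 37393 CPM and fWT mice 3395 to 5259 CPM. Each library held 15361901 to 26261394 counted reads. The summed CPM of 8 hepatocyte markers was 97718 to 152996, so defining hepatocyte transcripts were abundant in every mouse. In bulk tissue, fewer cells of a type and less RNA per cell cannot be told apart.

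Acute phase proteins are plasma proteins whose hepatic synthesis changes with infection, tissue injury or other inflammation. Interleukin-1 and interleukin-6 act on hepatocytes through NF-kB, STAT3 and C/EBP transcription factors to raise their mRNA. In mice, serum amyloid A and haptoglobin are strong reactants, fibrinogen and hemopexin are moderate ones, and Crp responds far less than in humans. Without inflammation the liver still secretes fibrinogen, haptoglobin and hemopexin in quantity.

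The 10 genes together held 1.37 to 2.37% of the counted reads of a mouse (median 1.70%). Per kilobase of transcript, Hpx (2033 ± 312 CPM per kb, SD, n = 6), Fgg (1785 ± 222) and Fga (1543 ± 236) had the highest levels in mWT mice, and the intervals of mean ± SD of neighbours in this order overlapped. Hp followed at 1187 ± 249 CPM per kb, Crp at 267 ± 20.7 and Saa4 at 217 ± 45.4, and the intervals of Crp and Saa4 overlapped in the same way. Saa1 at 56.1 ± 11.7, Saa2 at 15.2 ± 3.34 and Saa3 at 5.47 ± 1.85 CPM per kb formed a clear descending order. Fgb had 907 ± 97.9 CPM per kb of its long annotated transcript. Per kb of coding sequence it had the highest mean of all 10 genes, 2390 ± 258 CPM, so its place depends on the length used. By coding length its interval overlapped that of Fgg, 2308 ± 287 CPM, and in mKO mice Fgg ranked above Fgb. The order of Crp and Saa4 in mWT mice also depends on the length used. Per kb of coding sequence Saa4 had 1156 ± 242 CPM and Crp 668 ± 51.7 CPM, without overlap of these intervals. The plot of expression by mouse shows these levels without length correction.

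**Figure D1:**
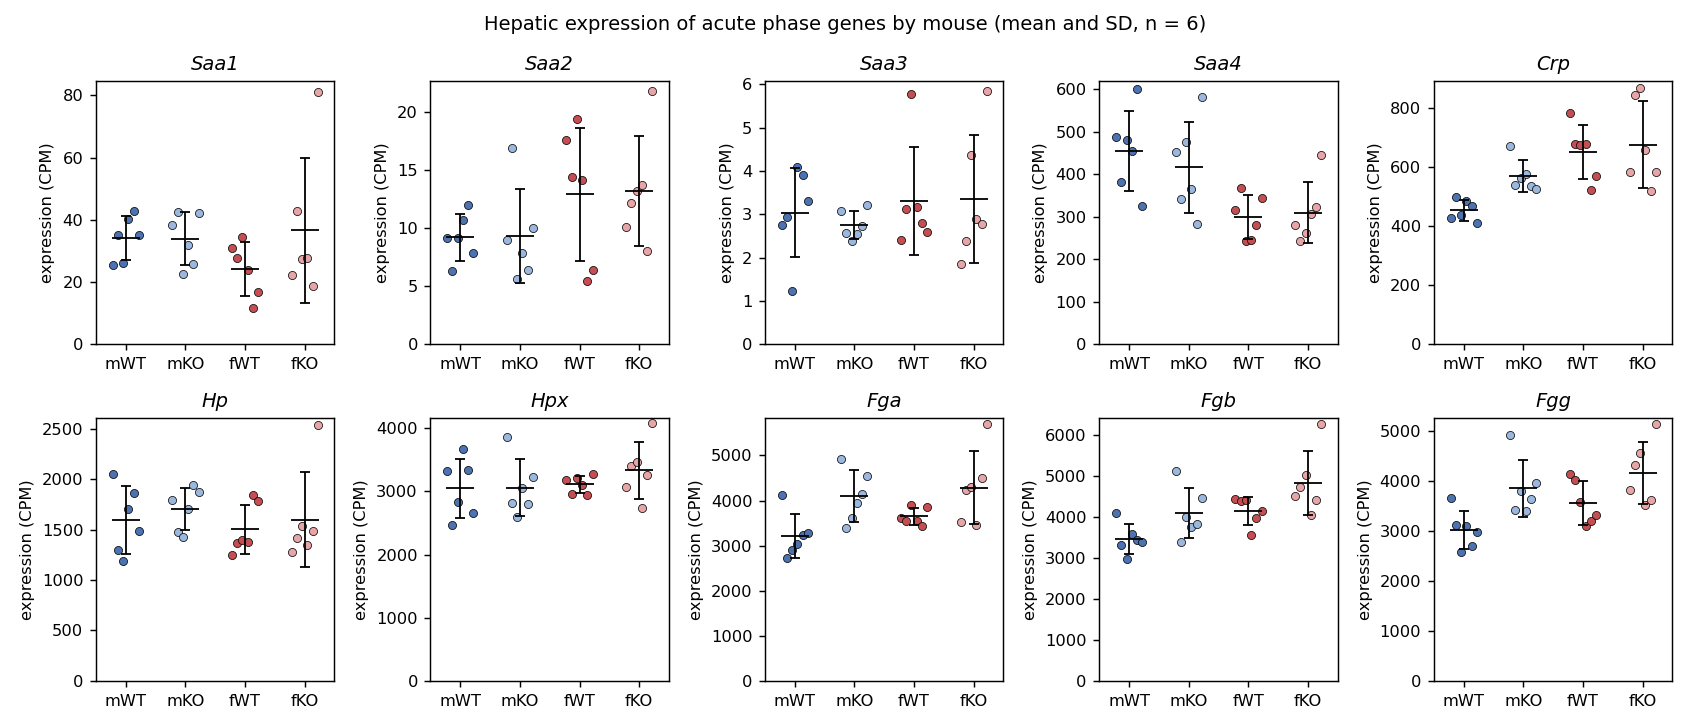
Expression of the 10 genes in CPM (vertical axes, each starting at 0) in the 6 mice of each group (points, in order of mouse number); horizontal lines and bars give mean and SD. Crp shows no overlap between mKO and mWT mice, and the highest point of fKO in 9 of the 10 panels is the same animal, mouse 6.

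Of the 3 fibrinogen chains, which assemble into the clotting protein of plasma, Fga and Fgg were higher in mKO than in mWT mice at the study's cut-off of p under 0.01, and no chain passed it in females. Fga (ENSMUSG00000028001), Fgb (ENSMUSG00000033831) and Fgg (ENSMUSG00000033860) are neighbours on chromosome 3 of GRCm38, at 83026076 to 83033627, 83040141 to 83049863 and 83007724 to 83015049. The sequences before their start sites are given here because the 3 genes varied together from mouse to mouse. They are the parts of the 250 bases before the RefSeq start site (GRCm38.p6) that lie outside the annotated gene, 5′ to 3′, with matches to the C/EBP motif TTNNGNAA, the STAT3 motif TTCNNNGAA and the interleukin-6 response motif CTGGGA, on either strand, in capitals.
Fga, chr3:83025903-83026075, plus strand: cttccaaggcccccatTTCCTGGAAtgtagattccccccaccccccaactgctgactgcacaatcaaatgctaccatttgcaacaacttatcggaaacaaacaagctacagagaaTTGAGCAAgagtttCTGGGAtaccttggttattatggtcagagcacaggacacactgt
Fgb, chr3:83049864-83050113, minus strand: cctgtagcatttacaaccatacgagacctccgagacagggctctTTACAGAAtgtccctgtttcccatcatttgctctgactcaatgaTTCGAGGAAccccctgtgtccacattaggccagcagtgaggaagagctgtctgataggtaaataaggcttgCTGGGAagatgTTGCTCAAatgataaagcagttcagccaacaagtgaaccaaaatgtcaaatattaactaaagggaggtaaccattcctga
Fgg, chr3:83007474-83007723, plus strand: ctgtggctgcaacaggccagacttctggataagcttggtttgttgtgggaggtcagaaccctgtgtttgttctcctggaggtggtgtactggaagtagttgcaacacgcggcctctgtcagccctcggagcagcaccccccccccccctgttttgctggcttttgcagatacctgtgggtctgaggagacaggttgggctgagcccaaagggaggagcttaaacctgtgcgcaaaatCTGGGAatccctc
All 3 chains hold CTGGGA, which 26.8% of 27025 RefSeq windows of 250 bases hold. The sequence of Fga is shorter than these windows, at 173 bases. Fga and Fgb hold a STAT3 match (7.18% of the windows), and they also hold a C/EBP match (36.9% of the windows), while Fgg holds neither. The matches in these sequences did not overlap, and a match is a description of letters, not a binding site.

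Fga, the chain that carries fibrinopeptide A, had 2726, 3130 and 4126 CPM (lowest, median and highest) in mWT and 3386, 4041 and 4925 CPM in mKO mice. In females, Fga had 3428, 3589 and 3896 CPM in fWT and 3458, 4271 and 5688 CPM in fKO mice. The groups overlapped in both sexes, and 1 mWT mouse stood above the other 5. The log2 fold change of Fga was 0.35 (95% confidence interval 0.12 to 0.58, adjusted p = 0.217) in males and 0.23 (-0.00067 to 0.46, adjusted p = 0.929) in females, or 0.13 in females without fKO mouse 6. Here and below, adjusted p-values are Benjamini-Hochberg values over all genes tested, from edgeR's quasi-likelihood test, while the cut-off and the calls refer to its unadjusted p-values.

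Fgg, the chain with the main platelet-binding tail, had 2590, 3043 and 3652 CPM in mWT and 3402, 3719 and 4928 CPM in mKO mice. In females it had 3092, 3455 and 4134 CPM in fWT and 3521, 4070 and 5141 CPM in fKO mice. Its groups also overlapped. The log2 fold change of Fgg was 0.35 (0.13 to 0.57, adjusted p = 0.201) in males and 0.23 (0.0016 to 0.45, adjusted p = 0.929) in females. Single mice decided these calls, as that of Fga was lost without mWT mice 2, 3 or 4 or mKO mice 1 or 6, and that of Fgg without mWT mice 3 or 5 or mKO mouse 1. The log2 fold changes then lay between 0.29 and 0.33 for Fga and between 0.27 and 0.32 for Fgg.

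Fgb, the chain that carries fibrinopeptide B, did not pass the cut-off in either sex. It had 2958, 3409 and 4093 CPM in mWT and 3389, 3909 and 5114 CPM in mKO mice. It had 3552, 4261 and 4429 CPM in fWT and 4030, 4600 and 6244 CPM in fKO mice. The log2 fold change of Fgb was 0.24 (0.028 to 0.46, adjusted p = 0.392) in males and 0.22 (0.002 to 0.43, adjusted p = 0.929) in females, or 0.13 in females without fKO mouse 6.

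Averaged over the sexes, the 3 chains passed the cut-off, with log2 fold changes of 0.29 for Fga (adjusted p = 0.222), 0.23 for Fgb (adjusted p = 0.299) and 0.29 for Fgg (adjusted p = 0.201). These were the 3 members called in that comparison, in which 2.83% of all genes tested and 1.49% in the upward direction were called. None had an adjusted p under 0.05 in edgeR, as had 0.170% of all genes, and 4 members had an unadjusted p under 0.05, beside 9.57% of all genes. DESeq2 gave 1 member, Fgg, an adjusted p under 0.05. Fgb fell short of the cut-off without mKO mouse 1 (log2 fold change 0.19) or without fKO mouse 6 (0.18). The KO effects in the sexes were not shown to differ, as the interaction was 0.12 for Fga (adjusted p = 0.94), 0.026 for Fgb (adjusted p = 0.985) and 0.12 for Fgg (adjusted p = 0.936).

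Since fibrinogen needs its chains in equal number, their ratios within a mouse were compared, after the values had been seen. Fga counts per Fgg count had a mean of 1.07 ± 0.119 (SD, n = 6) in mWT, 1.06 ± 0.0932 in mKO, 1.04 ± 0.128 in fWT and 1.03 ± 0.123 in fKO mice. Fgb counts per Fgg count were 1.15 ± 0.0701 in mWT, 1.06 ± 0.0471 in mKO, 1.17 ± 0.0779 in fWT and 1.16 ± 0.0541 in fKO mice. The Fgb to Fgg ratio was 0.11 lower on the log2 scale in mKO than in mWT mice (exact permutation test, two-sided, p = 0.0195, adjusted p = 0.0779 over 16 tests of ratios). Between fKO and mKO mice the log2 difference of this ratio was 0.13 (exact permutation test, p = 0.0108, adjusted p = 0.0779). That of the Fga to Fgb ratio was -0.18 (exact permutation test, p = 0.026, adjusted p = 0.0831). Of the 12 tests of chain ratios none had an adjusted p under 0.05, and the log2 differences ranged from -0.18 to 0.13.

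In males, the members called at p under 0.01 were thus Fga and Fgg together with Crp, 3 of 10, all higher in mKO than in mWT mice, beside 3.52% of all genes tested (1.80% in this direction). None of the 10 had an adjusted p under 0.05 in edgeR or DESeq2, as had 0.211% of all genes in edgeR (26 genes, or 2 once the Mup genes were removed), and 4 had an unadjusted p under 0.05, beside 10.6% of all genes. No member was called without mWT mouse 3 or without mKO mouse 1, and Fga alone was called without mWT mouse 5. In females, 0 of 10 members were called by edgeR or by DESeq2, beside 0.876% of all genes at p under 0.01 and 0.0892% with an adjusted p under 0.05, and 2 members had an unadjusted p under 0.05, beside 4.87% of all genes. The median log2 fold change of the members was 0.057 in males and 0.095 in females, where the medians over all genes were -0.0021 and -0.0026.

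**Figure D2:**
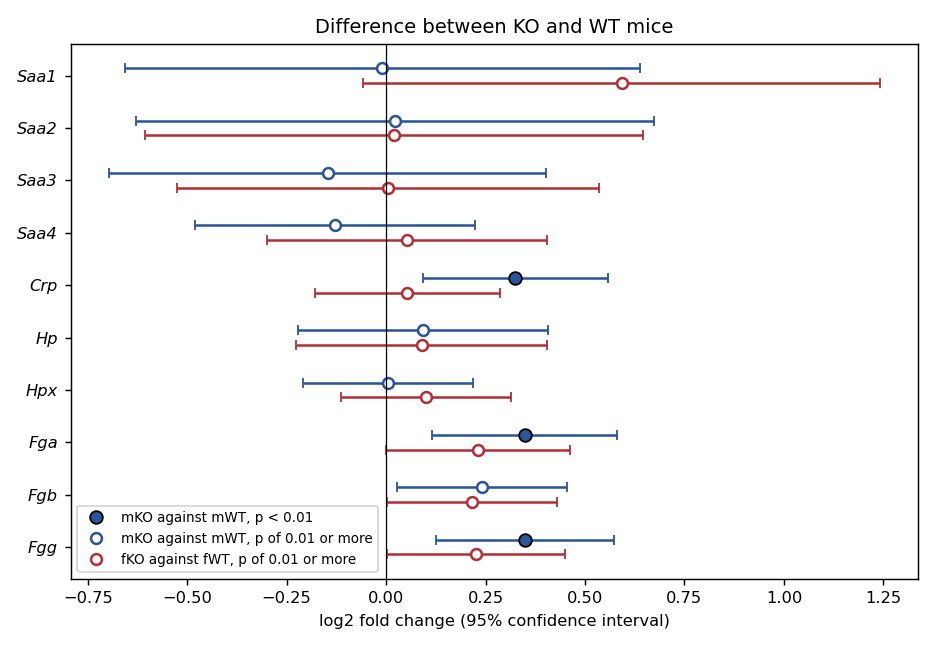
Log2 fold change of KO against WT mice (horizontal axis) of the 10 genes, for males in blue and females in red, with 95% confidence intervals; filled points mark p under 0.01. Filled points are Crp (0.32), Fga (0.35) and Fgg (0.35) in males, and the intervals of the Saa genes are the widest.

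Crp (ENSMUSG00000037942, chromosome 1, 172698055 to 172833031), a pentraxin that binds phosphocholine on microbes and dying cells, separated male KO from male WT mice completely. It had 408, 451 and 499 CPM in mWT and 524, 551 and 671 CPM in mKO mice. Every mKO mouse lay above every mWT mouse, a pattern that 0.584% of all genes tested showed in this direction. The log2 fold change was 0.32 (0.093 to 0.56, adjusted p = 0.266). Leaving out any of 7 of the 12 male mice took the p-value above 0.01. These were mWT mice 1, 3, 5 and 6 and mKO mice 1, 3 and 4, and the log2 fold change then ranged from 0.27 to 0.33.

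In females Crp had 522, 675 and 781 CPM in fWT and 517, 619 and 867 CPM in fKO mice. These groups overlapped almost entirely, with a log2 fold change of 0.053 (-0.18 to 0.29, adjusted p = 0.974). The difference of the KO effects between the sexes was 0.27 (-0.057 to 0.60, adjusted p = 0.88 for the interaction), so it was not shown that the effect in males exceeded that in females. No member was called for the interaction by edgeR or DESeq2, where 1.16% of all genes were called, and 0 members had an unadjusted p under 0.05.

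The same mWT mice entered the comparison of the sexes. Crp was higher in fWT than in mWT mice, again without overlap, by 0.52 on the log2 scale (0.29 to 0.75, adjusted p = 0.00189). Crp and Saa4 were the 2 members called between the sexes in WT mice, 1 higher and 1 lower in females, beside 18.2% of all genes at p under 0.01 and 17.3% with an adjusted p under 0.05. Groups without overlap and higher in females were found for 4.05% of all genes. In KO mice Crp differed by 0.25 (0.017 to 0.48, adjusted p = 0.144), and no member was called by edgeR or DESeq2, beside 15.9% of all genes at p under 0.01 and 14.4% with an adjusted p under 0.05, while 3 members had an unadjusted p under 0.05, beside 28.4% of all genes. The difference for Crp in KO mice was 0.32 and passed the cut-off without fKO mouse 5, the lowest of the fKO mice in Crp, and it was 0.17 without fKO mouse 3.

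**Figure D3:**
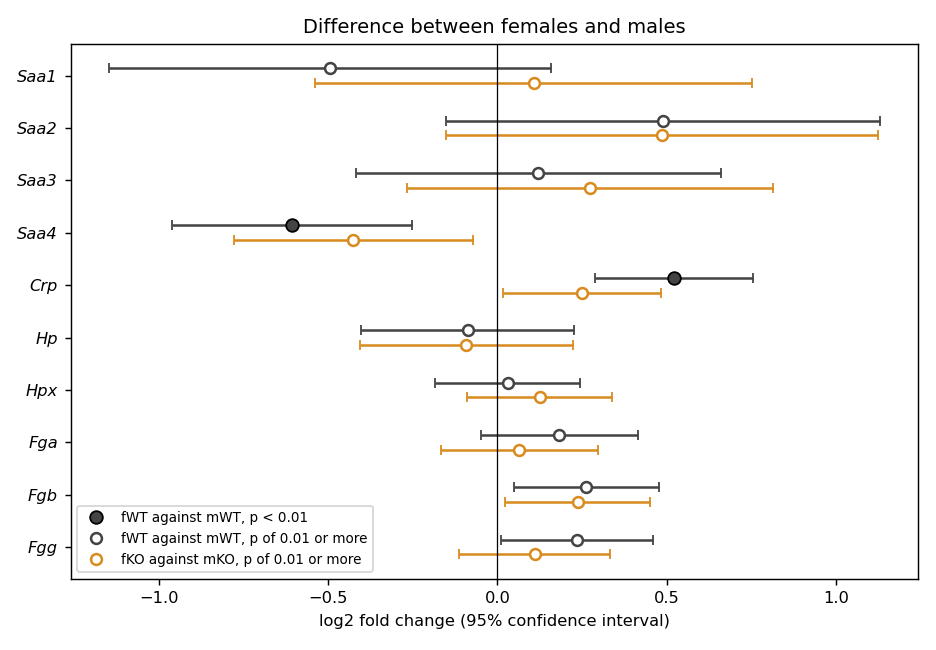
Log2 fold change of females against males (horizontal axis) of the 10 genes, in WT mice in grey and in KO mice in orange, with 95% confidence intervals; filled points mark p under 0.01. Filled points are Crp (0.52, higher in females) and Saa4 (-0.61, lower in females), both in WT mice.

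Saa4 (ENSMUSG00000040017, chromosome 7, 46727998 to 46732603) encodes the constitutive serum amyloid A of high-density lipoprotein, and it was lower in females. It had 325, 466 and 601 CPM in mWT and 243, 297 and 366 CPM in fWT mice. The groups overlapped in their margins, and the log2 fold change of fWT against mWT was -0.61 (-0.96 to -0.25, adjusted p = 0.0157). In KO mice Saa4 had 282, 408 and 580.5 CPM in males and 242, 293 and 446 CPM in females, and the log2 fold change was -0.43 (-0.78 to -0.072, adjusted p = 0.101). This difference was -0.56 without fKO mouse 6 and -0.52 without mKO mouse 5, and passed the cut-off in both cases, and it was -0.30 without mKO mouse 6. Between KO and WT mice Saa4 differed by -0.13 (-0.48 to 0.22, adjusted p = 0.876) in males and by 0.052 (-0.30 to 0.40, adjusted p = 0.986) in females.

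Among the fibrinogen chains, Fgb had a log2 fold change of 0.26 (0.049 to 0.48, adjusted p = 0.0825) between fWT and mWT mice and of 0.24 (0.023 to 0.45, adjusted p = 0.133) between fKO and mKO mice. In WT mice it passed the cut-off when the fit held these 2 groups alone (log2 fold change 0.26), or without mWT mouse 1 (0.32), fWT mouse 4 (0.30) or fKO mouse 6 (0.26). In KO mice it did so without mKO mouse 1 (log2 fold change 0.31), and the log2 fold change was 0.15 without fKO mouse 6. Fgg had a log2 fold change of 0.23 (adjusted p = 0.142) and Fga one of 0.18 (adjusted p = 0.286) between fWT and mWT mice.

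Cell type markers also differed between the sexes. The summed level of 8 Kupffer cell and macrophage markers was 149 to 273 CPM in fWT and 81.8 to 165 CPM in mWT mice, with 5 of the 8 called higher in fWT mice beside 18.2% of all genes called, and 123 to 220 CPM in fKO and 77.5 to 217 CPM in mKO mice, with 0 called. Summed hepatocyte markers were 101287 to 149647 CPM in fWT and 97718 to 133644 CPM in mWT mice, with 0 of 8 called. Erythroid markers summed to 149 to 214 CPM in mWT and 40.5 to 67.8 CPM in fWT mice, with 1 of the 5 tested called lower in fWT mice, and to 155 to 260 CPM in mKO and 41.2 to 60.5 CPM in fKO mice, with 5 of 5 called lower in fKO mice beside 15.9% of all genes called. Such a sum mostly reflects the most abundant markers. The median log2 fold change of the 5 tested was -0.44 between fWT and mWT mice and -1.14 between fKO and mKO mice. Of 6 endothelial markers 2 were called higher in fWT and 1 in fKO mice, and of 6 stellate cell and fibroblast markers 1 was called higher in fWT and 2 in fKO mice. The 7 neutrophil markers, of which 1 passed the filter, summed to 0.637 to 1.46 CPM in mWT, 0.729 to 2.08 CPM in mKO, 0.970 to 3.21 CPM in fWT and 0.684 to 1.60 CPM in fKO mice, with Ly6g at 0 in every mouse. Between KO and WT mice of a sex, 0 markers of these 6 cell types were called. The part of these markers in the differences of Crp and Saa4 between the sexes was not tested.

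Hp and Hpx, which clear free haemoglobin and free haem from plasma, did not pass the cut-off in any comparison. Hp (ENSMUSG00000031722, chromosome 8, 109575128 to 109579172) had 1188, 1592 and 2052 CPM in mWT, 1430, 1748 and 1940 CPM in mKO, 1250, 1388 and 1842 CPM in fWT and 1277, 1448 and 2539 CPM in fKO mice. The ranges of all 4 groups overlapped widely. Its log2 fold change of KO against WT was 0.093 (-0.22 to 0.41, adjusted p = 0.907) in males and 0.089 (-0.23 to 0.40, adjusted p = 0.967) in females, and the latter was -0.093 without fKO mouse 6, the animal at 2539 CPM.

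Hpx (ENSMUSG00000030895, chromosome 7, 105591613 to 105600137) had 2463, 3080 and 3672 CPM in mWT, 2597, 2934 and 3865 CPM in mKO, 2939, 3146 and 3268 CPM in fWT and 2733, 3329 and 4083 CPM in fKO mice. The fWT mice were the most alike of the 4 groups, with a coefficient of variation of 4.33%. The KO effect on Hpx was 0.0054 (-0.21 to 0.22, adjusted p = 0.995) in males and 0.10 (-0.11 to 0.31, adjusted p = 0.946) in females, or 0.032 in females without fKO mouse 6. The interval of Hpx therefore bounds a change in males at about 0.22 on the log2 scale in either direction. Of 9 genes of haemoglobin and haem clearance, among them the heme oxygenases and Cd163, edgeR and DESeq2 called 0 between KO and WT mice in either sex, and 1 gene in each sex had an unadjusted p under 0.05.

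Saa1 (ENSMUSG00000074115, chromosome 7, 46740497 to 46742980) and Saa2 (ENSMUSG00000057465, 46751790 to 46754313) encode the inducible serum amyloid A proteins. They lie back to back, and their coding sequences of 369 bases are identical at 351 positions (95.1%). The stretch from base 90 to base 149 of each coding sequence (GENCODE M21) shows how the genes can be told apart, with the 7 bases that differ in capitals.
Saa1 coding: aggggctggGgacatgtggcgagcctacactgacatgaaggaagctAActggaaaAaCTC
Saa2 coding: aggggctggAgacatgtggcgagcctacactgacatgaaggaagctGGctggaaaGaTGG
Across the transcripts the longest identical run was 99 bases and no stretch of 100 bases was shared, while 13.2% of the 50-base stretches of Saa1 also occur in Saa2, so that trimmed reads could be ambiguous. How the counting treated such reads is not given in the sources used here. The sequences before both start sites are also alike, and they are shown with C/EBP matches in capitals as above.
Saa1, chr7:46742981-46743230, minus strand: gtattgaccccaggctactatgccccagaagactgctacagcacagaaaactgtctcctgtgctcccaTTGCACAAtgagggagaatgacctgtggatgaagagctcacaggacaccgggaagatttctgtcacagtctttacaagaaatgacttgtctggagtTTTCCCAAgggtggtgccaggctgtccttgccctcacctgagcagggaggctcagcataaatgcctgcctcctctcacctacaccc
Saa2, chr7:46751583-46751789, plus strand: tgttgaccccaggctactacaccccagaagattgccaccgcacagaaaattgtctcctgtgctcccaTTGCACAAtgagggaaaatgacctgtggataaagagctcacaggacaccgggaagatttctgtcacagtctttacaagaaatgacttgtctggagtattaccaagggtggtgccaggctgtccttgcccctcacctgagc
The match TTGCACAA is found in both, and the second C/EBP match of Saa1, TTTCCCAA, is not matched in Saa2. Neither window holds the STAT3 or the interleukin-6 response motif.

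Saa1 had 25.6, 35.1 and 42.9 CPM in mWT, 22.5, 35.1 and 42.5 CPM in mKO, 11.7, 25.8 and 34.4 CPM in fWT and 18.6, 27.6 and 81.1 CPM in fKO mice. The value of 81.1 CPM in fKO mouse 6 was the highest of all 24 mice, and the next highest was 42.9 CPM. The KO effect was -0.0095 (-0.66 to 0.64, adjusted p = 0.996) in males and 0.59 (-0.057 to 1.24, adjusted p = 0.929) in females, and it was 0.20 in females without fKO mouse 6. The interaction was -0.60 (-1.52 to 0.31, adjusted p = 0.897), or -0.21 without the same mouse.

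Saa2 had 6.29, 9.13 and 12.02 CPM in mWT, 5.64, 8.41 and 16.9 CPM in mKO, 5.49, 14.3 and 19.4 CPM in fWT and 8.03, 12.7 and 21.9 CPM in fKO mice. The KO effect on Saa2 was 0.022 (-0.63 to 0.67, adjusted p = 0.992) in males and 0.020 (-0.61 to 0.65, adjusted p = 0.997) in females. In males the intervals, from -0.66 to 0.64 for Saa1 and from -0.63 to 0.67 for Saa2, leave room for a change in either direction within these bounds.

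The sexes differed in the balance of Saa1 and Saa2, while neither gene alone passed the cut-off. Between fWT and mWT mice the log2 fold change was -0.49 for Saa1 (adjusted p = 0.304) and 0.49 for Saa2 (adjusted p = 0.302). The count of Saa1 per count of Saa2, compared after these values had been seen, was 2.81, 3.66 and 5.58 (lowest, median and highest) in mWT and 1.69, 1.84 and 2.65 in fWT mice. Every fWT mouse lay below every mWT mouse, with mean ratios of 1.99 ± 0.361 and 3.83 ± 1.05 (SD, n = 6), 1.90-fold lower in geometric mean (exact permutation test, two-sided, p = 0.00216, which 6 against 6 mice cannot go below, adjusted p = 0.0346 over 16 tests of ratios).

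In KO mice the ratio was 2.51, 4.06 and 4.25 in males and 2.03, 2.25 and 3.71 in females. These groups overlapped, as 1 mKO mouse was at 2.51 and 2 fKO mice were at 3.53 and 3.71. The ratio was 1.48-fold lower in fKO than in mKO mice (exact permutation test, p = 0.0173, adjusted p = 0.0779). Between KO and WT mice the log2 difference of the ratio was 0.026 (exact permutation test, p = 0.879) in males and 0.38 (exact permutation test, p = 0.0779) in females. This ratio does not depend on the scaling of the libraries, and leaving out each mouse in turn kept the difference between fWT and mWT mice between -1.01 and -0.81 on the log2 scale. With each mouse left out in turn, the difference between fKO and fWT mice ranged from 0.28 without fKO mouse 6 (exact permutation test, p = 0.156) to 0.47 without fWT mouse 6 (exact permutation test, p = 0.013).

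**Figure D4:**
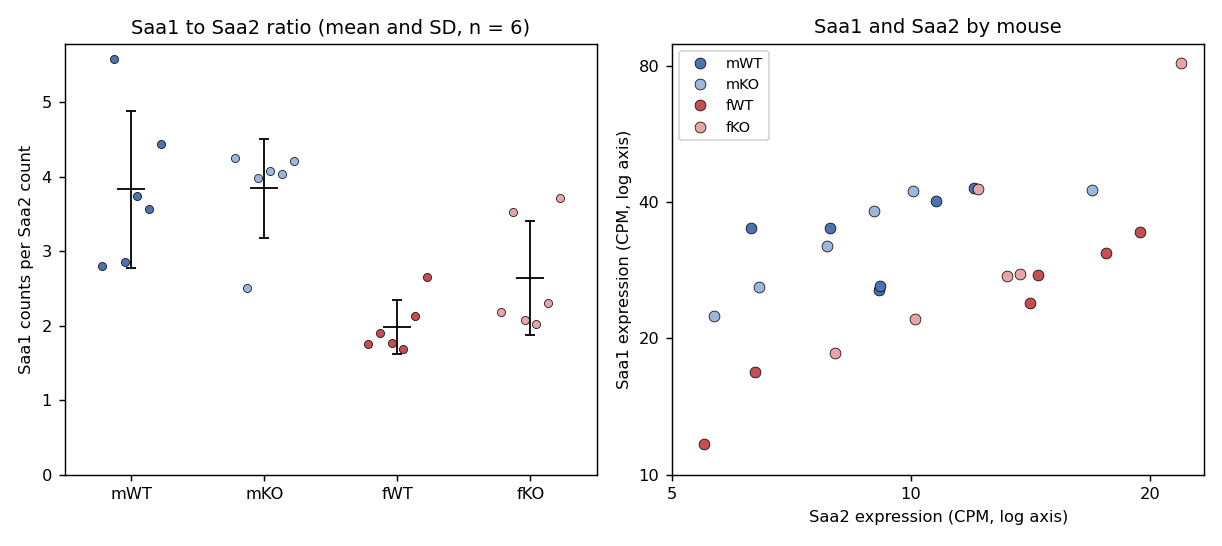
Left, Saa1 counts per Saa2 count (vertical axis) in the 6 mice of each group, with mean and SD. Right, Saa1 against Saa2 expression in CPM on log axes, with 1 point per mouse. At the same Saa2 level most female mice had less Saa1 than male mice, and mean ratios were 3.83 in mWT and 1.99 in fWT mice.

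Saa3 (ENSMUSG00000040026, chromosome 7, 46711998 to 46715700), which is made mainly outside hepatocytes, was close to the filter. It had 1.23, 3.12 and 4.09 CPM in mWT, 2.37, 2.64 and 3.21 CPM in mKO, 2.41, 2.96 and 5.77 CPM in fWT and 1.86, 2.84 and 5.84 CPM in fKO mice, from 21 to 121 counts per mouse. The KO effect was -0.15 (-0.70 to 0.40, adjusted p = 0.923) in males and 0.0057 (-0.52 to 0.54, adjusted p = 0.9999) in females. These intervals leave room for a change of Saa3 in either direction within their bounds.

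Mice of 1 group varied most in the inducible genes. The SD of log2(CPM + 0.5) within groups was 0.54 for Saa1 and 0.53 for Saa2, larger than for 97.7% of all genes tested, and 0.42 for Saa3. It was 0.31 for Saa4, 0.28 for Hp and 0.20 for Crp. For Hpx, Fga, Fgb and Fgg it was 0.18 to 0.20, close to the median of all genes, 0.19. The spread also depends on the level of a gene. Among the 500 genes nearest in level, the median SD was 0.165 for Hpx, Fga, Fgb and Fgg, which exceeded 58.8 to 66.2% of them. For Saa3 the median of such genes was 0.27, and Saa3 exceeded 88.6% of them, while Saa1 exceeded 98.4% and Saa2 98.2% of theirs.

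The members also varied together from mouse to mouse. After subtraction of the group mean, 42 of the 45 pairs of members had a positive Pearson correlation over the 24 mice, with a median r of 0.39. Of these 45 relations, 12 had an adjusted p under 0.05 by Pearson's r, each positive, and 7 by Spearman's rho (permutation within groups, 100000 resamples, two-sided). The values of a mouse share its library and scaling, and the part of these was not tested. The share of positive pairs among other genes was not determined.

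The closest pairs were genes of 1 protein or of near-identical sequence. Fgb and Fgg had r = 0.91 and rho = 0.88 (permutation tests, both p = 1e-05, the smallest they can give, adjusted p = 0.000225 and 0.00045), and r = 0.86 without the 2 mice farthest from the median. Fga and Fgb had r = 0.82 and rho = 0.70 (permutation tests, p = 4e-05 and 0.00071, adjusted p = 0.0006 and 0.00639), and r = 0.72 without 2 mice. Fga and Fgg were less close, with r = 0.66 and rho = 0.53 (permutation tests, p = 0.00169 and 0.0191, adjusted p = 0.0109 and 0.082), and r = 0.49 without 2 mice. Their r was below those of Fga with Hp and with Hpx, which follow. Saa1 and Saa2 had r = 0.82 and rho = 0.83 (permutation tests, p = 1e-05 and 3e-05, adjusted p = 0.000225 and 0.000675), and r = 0.76 without 2 mice.

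Hp and Hpx varied with the fibrinogen chains, of which Hp with Fgg was the 1 pair without an adjusted p under 0.05 by Pearson's r. Hp and Fga had r = 0.75 and rho = 0.68 (permutation tests, p = 0.00014 and 0.00069, adjusted p = 0.00158 and 0.00639), Hpx and Fga r = 0.74 and rho = 0.69 (permutation tests, p = 0.00062 and 0.0018, adjusted p = 0.00547 and 0.0135), and without 2 mice r was 0.56 and 0.62. Hpx and Fgb had r = 0.72 and rho = 0.72 (permutation tests, p = 0.00073 and 0.00025, adjusted p = 0.00547 and 0.00375), and r = 0.54 without 2 mice. Hp and Fgb had r = 0.61 and rho = 0.48 (permutation tests, p = 0.00512 and 0.0216, adjusted p = 0.0256 and 0.082), and r = 0.35 without 2 mice. Hpx and Fgg had r = 0.55 and rho = 0.49 (permutation tests, p = 0.0123 and 0.0273, adjusted p = 0.0461 and 0.082), and r = 0.30 without 2 mice. Hp and Fgg had r = 0.36 (permutation test, p = 0.121, adjusted p = 0.194), and r = 0.020 without 2 mice. Hp and Saa2 had an r of 0.012 (permutation test, p = 0.955). Crp was in none of the 12 pairs, and its r with the other members ranged from -0.32 with Hp to 0.41 with Fgg. The number of pairs was 8 without mWT mouse 3 or without fKO mouse 6, 16 without mKO mouse 2 and 17 without mWT mouse 1.

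**Figure D5:**
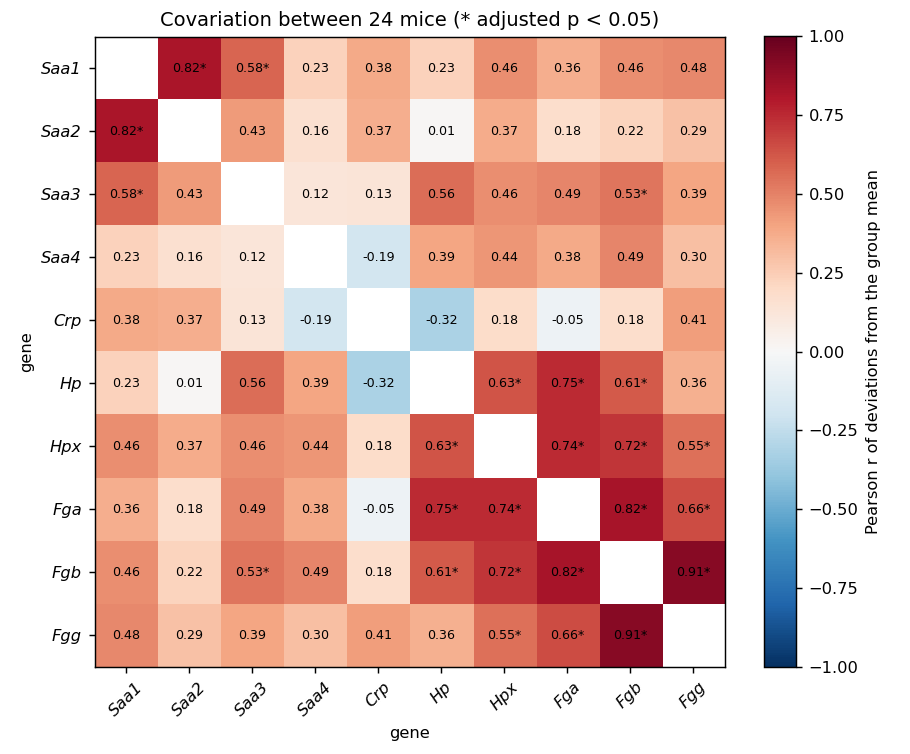
Pearson correlation of the deviations of log2(CPM + 0.5) from the group mean over 24 mice for each pair of the 10 genes, coloured from -1 (blue) to 1 (red); asterisks mark adjusted p under 0.05. The fibrinogen chains, Hp and Hpx form a block with r up to 0.91, in which Hp with Fgg has no asterisk, Saa1 pairs with Saa2 at 0.82, and Crp has no asterisk.

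Set against all 12329 other genes tested, by the same deviations over 24 mice and as a description, Fgg and Fga ranked 1 and 2 in likeness to Fgb, followed by Rdh7 (r = 0.72), Hpx (0.72) and Dnajc12 (0.68). Saa2 ranked 1 for Saa1, followed by Orm1 (0.79), C9 (0.68), Slc41a2 (0.68) and Apol9b (0.67). The genes most like Hp were Lrg1 (0.88), Serpina3n (0.86), Plbd2 (0.84), AA986860 (0.83) and Nr1i2 (0.83). Those most like Crp were Klf6 (0.82), Cldn1 (0.82), Tnfaip8l3 (0.80), AI182371 (0.80) and Evi5 (0.79), and the nearest member, Fgg, ranked 1239. The orosomucoid Orm1, complement C9, Lrg1 and Serpina3n are themselves acute phase genes.

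The members were then set beside other genes of the acute phase response, in comparisons that called 3.52% of all genes in males and 0.876% in females. Of 25 further genes of rising acute phase proteins, edgeR called 0 between KO and WT mice in males or in females, with 2 at an unadjusted p under 0.05 in each sex, and DESeq2 called 1 in males and 0 in females. Their median log2 fold change was 0.051 in males and 0.16 in females. Orm1, a major secreted reactant, had 595, 691 and 867 CPM in mWT and 652, 807 and 920.2 CPM in mKO mice (log2 fold change 0.20, adjusted p = 0.579). Lcn2, an iron-withholding lipocalin that rises steeply in inflammation, had 0.498, 2.87 and 7.75 CPM in mWT and 1.74, 2.98 and 6.24 CPM in mKO mice (log2 fold change -0.063, adjusted p = 0.987). In females Lcn2 had 5.36, 6.41 and 7.70 CPM in fWT and 4.04, 6.85 and 33.1 CPM in fKO mice (log2 fold change 0.66, adjusted p = 0.933).

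Of 10 negative acute phase proteins, which fall in inflammation, edgeR called 2 and DESeq2 3 in males, beside 3.52% of all genes in edgeR, and both called 0 in females, with 0 at an unadjusted p under 0.05. The thyroxine carrier transthyretin, Ttr, was higher in mKO mice (log2 fold change 0.30, adjusted p = 0.212), and corticosteroid-binding globulin, Serpina6, was lower (-0.38, adjusted p = 0.276). Neither call held without mWT mouse 3, where the log2 fold change was 0.27 for Ttr and -0.33 for Serpina6, and other single mice had a like effect. Of 6 lipoprotein partners of serum amyloid A, Apoa2 (0.31, adjusted p = 0.102) and hepatic lipase, Lipc (0.29, adjusted p = 0.18), were called higher in males, the latter not without mKO mouse 1 (0.23). Of 9 genes of fibrinogen processing and fibrin turnover, such as prothrombin and plasminogen, edgeR and DESeq2 called 0 in either sex, with 2 at an unadjusted p under 0.05 in males and 0 in females. Their median log2 fold change was 0.097 in males and 0.12 in females.

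Of 11 cytokine and receptor genes tested of 16 listed, Il1rap, the co-receptor for interleukin-1, was called in both sexes, at log2 fold changes of 0.26 in males (adjusted p = 0.146) and 0.27 in females (adjusted p = 0.55). For the KO effect averaged over the sexes its log2 fold change was 0.26 (adjusted p = 0.0134). The interleukin-6 receptor genes were not called, with log2 fold changes in males of -0.27 for Il6ra (adjusted p = 0.81) and -0.16 for Il6st (adjusted p = 0.411). Of 18 signalling and transcription factor genes edgeR and DESeq2 called 0 in either sex, with 2 at an unadjusted p under 0.05 in males and 1 in females. Their log2 fold changes in males were -0.052 for Stat3 (adjusted p = 0.933), -0.38 for the feedback inhibitor Socs3 (adjusted p = 0.832), -0.21 for Cebpb (adjusted p = 0.79), -0.47 for Cebpd (adjusted p = 0.72) and 0.020 for the NF-kB inhibitor Nfkbia (adjusted p = 0.986).

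Between the sexes, more genes were called, 18.2% of all genes in WT and 15.9% in KO mice. Of the 25 rising genes, 11 were called higher in fWT than in mWT mice and 0 lower, and 14 were called higher in fKO than in mKO mice and 0 lower, with median log2 fold changes of 0.82 and 0.71. The 2 largest log2 fold changes of these 25 genes in WT mice were those of Hamp2 (4.48, adjusted p = 1.84e-06), which encodes a hepcidin, and Il1rn (1.81, adjusted p = 3.9e-05), the interleukin-1 receptor antagonist. Among the 10 negative acute phase proteins, 4 were called higher in fWT than in mWT mice and 0 lower. In KO mice 5 of them were called higher in females and 1 lower. Their median log2 fold changes were 0.19 in WT and 0.28 in KO mice. Among the 11 cytokine and receptor genes tested, 1 was called higher and 2 lower in fWT mice, and 1 higher and 1 lower in fKO mice. Of the 9 genes of fibrin turnover, 5 were called higher in fWT mice, beside 18.2% of all genes called, among them antithrombin, Serpinc1 (0.29, adjusted p = 0.000969), and plasminogen, Plg (0.25, adjusted p = 0.0145). The median log2 fold change over the 10 members was 0.15 between the sexes in WT and 0.12 in KO mice.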

How the data were processed

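Liver RNA of 24 mice was sequenced as polyA-selected, stranded libraries (100 bp single reads, 1 multiplex). Per the submitters' processing notes and the study's methods, the authors trimmed reads with fastp 0.20, aligned them with STAR 2.7a to GRCm38.p6, counted them per gene with featureCounts and deposited raw counts for each mouse, which are the values used here. The annotation release, the strand setting and the treatment of reads with several matches are not given in the sources used here. Gene IDs were matched to GENCODE M21 (25712 of 25746).

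Groups followed the labels. Genes with at least 0.66 CPM in 6 libraries were kept. edgeR 4.0.16 (R 4.3.3; TMM scaling, robust quasi-likelihood F-test, all 24 mice in 1 fit) tested 6 contrasts: KO against WT in each sex, females against males in each genotype, the interaction, and the KO effect averaged over the sexes. A gene was called at p under 0.01, as in the study, or at a Benjamini-Hochberg adjusted p under 0.05. CPM values use TMM-scaled library sizes, and the edgeR p-values set a difference between groups against the spread between mice of a group. Covariation used log2(CPM + 0.5) minus the group mean, with permutations within groups, and ratios used counts within a mouse (Python 3.11.15, scipy 1.17.1). The edgeR fit was run on simulated counts with known changes in mKO mice, and the other steps were not tested in this way. Named were the 10 members, genes of 7 pathway lists at p under 0.01 (up to 3 per list and contrast) or fixed by name, and the 5 genes most like Saa1, Crp, Hp and Fgb. The members and lists were named by gene symbol, with earlier results of these data known. Alternatives were DESeq2 1.42.0, other scaling, filters, dispersions and deviances, 2 groups alone, removal of the Mup genes, the replicate number as a block, and leaving out each mouse.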

Additional observations from a re-analysis of the deposited data

Results flagged for a closer look

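In 4 of the 40 groups of 6 mice (10 genes in 4 groups), the gap between the extreme mouse and its nearest neighbour, divided by the range of the group, exceeded the critical value of Dixon's test at the 95% level. Chance flags about 1 in 20 groups. Saa3 was 5.77 CPM in fWT mouse 3. Crp was 671 CPM in mKO mouse 1, and Fgg was 4928 CPM in the same mouse. Hp was 2539 CPM in fKO mouse 6.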

How the results depend on the processing

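The number of members called did not change under the alternatives to the test, scaling, filter, dispersion, deviances, samples in the fit, Mup genes or block, with these exceptions: between fWT and mWT mice it was 3 rather than 2 in a fit of these groups alone, and for the averaged KO effect DESeq2 gave 1 member rather than 0 an adjusted p under 0.05. When each mouse was left out in turn, the members called ranged from 0 to 3 for the KO effect in males, from 0 to 1 between fKO and mKO mice (0 to 1 also at an adjusted p under 0.05), from 2 to 3 between fWT and mWT mice and from 2 to 4 for the averaged KO effect. The mice that gave 1 call between fKO and mKO mice were mKO mice 1 and 5 and fKO mice 5 and 6.

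Values near 0 changed sign, none of them past a threshold. With the replicate block, the log2 fold change of Saa2 was -0.043 in males, -0.085 for the interaction and -0.00054 for the averaged effect, and that of Saa3 in females was -0.022, or -1.3e-05 with the deviances of edgeR 4. For the interaction, Saa2 was -0.014 with DESeq2, -0.0027 with DESeq2 size factors and -0.0021 without the Mup genes, and Hp was -0.0013, -0.0013 and -0.00022. The lowest and highest log2 fold changes with 1 mouse left out were, in males, -0.085 and 0.085 for Saa1, -0.24 and 0.13 for Saa2 and -0.073 and 0.066 for Hpx. In females they were -0.18 and 0.17 for Saa2, -0.22 and 0.24 for Saa3, -0.080 and 0.12 for Saa4, -0.031 and 0.12 for Crp and -0.093 and 0.16 for Hp. For the interaction they were -0.26 and 0.20 for Saa2, -0.38 and 0.070 for Saa3, -0.069 and 0.18 for Hp and -0.048 and 0.11 for Fgb. Between fWT and mWT mice they were -0.11 and 0.23 for Saa3 and -0.024 and 0.090 for Hpx. Between fKO and mKO mice they were -0.29 and 0.25 for Saa1 and -0.032 and 0.12 for Fga. For the averaged effect they were -0.11 and 0.097 for Saa2, -0.18 and 0.046 for Saa3, -0.10 and 0.010 for Saa4 and -0.00095 and 0.13 for Hp. The log2 ratio of Saa1 to Saa2 between mKO and mWT mice ranged from -0.055 to 0.14.

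The replicate block left 3 members called in males and 0 in females. Over all genes it gave 405 calls in males and 91 in females rather than 434 and 108. Expression gave little sign of a pairing by number, as 5 of 24 pairs of 1 number correlated above 0.1 (range -0.36 to 0.22) and 1 mouse correlated best with its own number. The labels do not say what the numbers stand for, and correlations of expression cannot settle whether the mice were paired. At an adjusted p under 0.05, males had 26 genes in edgeR, 107 in DESeq2, 48 in a fit of the 2 groups alone and 2 without the Mup genes. Females had 11 genes, 18 in DESeq2 and 0 without the Mup genes. The interaction had 1 gene and 10 in DESeq2, and the averaged effect had 21, 48 in DESeq2 and 1 without the Mup genes. The cause was not tested, apart from the removal of the Mup genes, which were themselves among the calls. Saa3, at 21 to 121 counts, limits what can be said of that gene, and single mice limit the calls of Crp, Fga, Fgb and Fgg.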

Other observations

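Mouse 6 of the fKO group was the highest of its group for 9 of the 10 acute phase genes, with Crp as the exception. Its level of Saa1 was 81.1 CPM, where the highest of the other 23 mice had 42.9 CPM, and its level of Hp was 2539 CPM, where the highest of the others had 2052 CPM. Lcn2, which binds bacterial siderophores, was 33.1 CPM in this mouse and at most 8.18 CPM in the others. Of 25 further genes of rising acute phase proteins, 16 were highest in this mouse among the fKO mice, among them Orm1, Orm2, Orm3, Serpina3n, Lrg1, Hamp, Itih3, Itih4, C3 and Mt2. The mouse was picked after its values had been seen. How many of all genes tested were highest in it was not determined, so these counts have no background beside them. Whether this animal had an inflammation was not recorded in the labels. Among the mKO mice, mouse 1 was the highest for Crp, Hpx, Fga, Fgb and Fgg.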
